A study of Mus musculus with 6 samples.

Results

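The genes described here encode the machinery of fatty acid oxidation, the breakdown of fatty acids for energy. They were selected by name, as 30 genes grouped by their role. Earlier results of these data were known when these genes, and the related and marker lists below, were chosen. The genes were read from the array's probe sets that list 1 gene, with the probe set of the highest mean over the 6 arrays where a gene had several. Of the 30 genes, 29 were measured, among 22180 genes tested. Acsl3, a long-chain acyl-CoA synthetase, was not, because its only probe set also lists Utp14b.

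Affymetrix arrays measured RNA of embryonic fibroblasts, sorted at stage E14.5 from the dorsal body wall of mice of the strain 129SV. All embryos were Ebf2(GFP)/+, so that both groups carried 1 copy of the Ebf2 reporter allele, and all cells had been sorted as PDGFRα+, a surface receptor of mesenchymal cells. The Ebf2(GFP)+ group (3 arrays, here GFP-positive) and the Ebf2(GFP)- group (3 arrays, here GFP-negative) differed in the reporter signal alone as far as the labels state. They were freshly sorted embryonic cells and not fat cells, and whether an array holds 1 embryo or a pool is not given in the sources used here. The series presents Ebf2 as a marker of brown and beige fat precursors. The comparison here asks whether such precursors already differ from their neighbours in the genes that burn fat.

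Fatty acids enter oxidation when acyl-CoA synthetases join them to coenzyme A. The carnitine shuttle carries long chains into the mitochondrion, where a repeating set of enzymes (a dehydrogenase, a hydratase, another dehydrogenase and a thiolase) shortens the chain in steps and passes electrons on to the respiratory chain. Peroxisomes run a related pathway for very long and branched chains. Brown and beige fat cells depend on this pathway as the fuel supply for heat production, and its genes are classical targets of the PPAR nuclear receptors and their coactivator Ppargc1a.

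Ebf2 followed the sort, with a mean log2 value of 8.65 in GFP-negative and 12.0 in GFP-positive cells (limma adjusted p = 0.000916). Its change was 3.35 in the probe set used and 1.69 with the mean of its probe sets, which thus did not move alike. Pdgfra was high in both groups (12.95 and 13.14, adjusted p = 0.178). The mesenchymal marker list was measured for 10 of 10 genes, with a median change of −0.046. Its log2 summed level was 16.53 to 16.57 in GFP-negative and 16.49 to 16.52 in GFP-positive arrays. Its mean log2 value was 12.97 to 13.01 in GFP-negative and 12.72 to 12.76 in GFP-positive arrays. The 2 genes of the list that were lower were Thy1 (−1.95, limma adjusted p = 0.000276) and Lum (−0.34, 0.0295). Markers of other cells also moved with the sort. The macrophage list was lower for 18 of 18 genes, with a log2 summed level of 13.94 to 14.86 in GFP-negative and 11.50 to 12.53 in GFP-positive arrays. The cartilage list was lower for 16 of 16 genes (14.83 to 15.10 against 13.38 to 13.60). Of the muscle markers, 2 of 16 were higher and 0 lower (4 higher with the replicate block described below). Endothelial markers gave 1 higher and 2 lower of 10 (3 lower with the block), epithelial ones 0 and 1 of 7 (1 higher with the block), Schwann cell ones 0 and 2 of 5, and erythroid ones 0 and 0 of 4, with none at an unadjusted p under 0.05 either. Of 16 genes of the response to tissue dissociation, 0 passed in limma (1 lower at an unadjusted p under 0.05, 6 lower with the block). Of 19 genes of hypoxia and glycolysis, 1 was higher and 2 were lower (4 lower with the block). The higher one was Egln3 (2.77-fold, limma adjusted p = 0.00117, and up to 0.0118 with 1 array left out). Over all genes tested, 2.65% were higher and 3.84% lower, and 4.55% and 5.49% with the block. Among up to 4 called genes a list, calls were lost with 1 array left out for Emcn (endothelial, without negative replicate 3 or any positive array, adjusted p of 0.0752 to 0.0943), Cdh5 (endothelial, without negative or positive replicate 2, 0.066 and 0.0549), Sox10 (Schwann cell, without any positive array, 0.0557 to 0.0924) and Lum (mesenchymal, without any array but negative replicate 1, 0.0709 to 0.103). The same held for Pfkl (glycolysis, without any array but negative replicate 2, 0.0719 to 0.103), Aldoc (glycolysis, without negative replicate 2 or 3 or positive replicate 1 or 3, 0.0871 to 0.118), Mymk (muscle, without positive replicate 1 or 2, 0.0661 and 0.0635) and Lyz2 (macrophage, without positive replicate 2, 0.0563). The array values carry no zeros, so none of these markers could be called absent. Their part in the results below was not tested, and in such bulk samples fewer cells of a type and less RNA per cell cannot be told apart.

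Most fatty acid oxidation genes had nearly the same values in both groups, and the largest estimates were increases of 4 genes in GFP-positive cells. With limma, 0 of 29 passed at an adjusted p under 0.05 over all genes, in either direction, where 6.49% of all genes tested passed (2.65% higher and 3.84% lower). Of the 29, 0 lay under the 40th percentile of mean level, where 8872 of the 22180 genes did. Without those dim genes, 669 of 13308 were higher and 854 lower, and again 0 oxidation genes passed. The shares of all genes given in this report include the dim ones. At an unadjusted p under 0.05, 4 of 29 were higher (13.8%, against 9.19% of all genes) and 0 were lower (against 8.51% of all genes). The 4 were Acsl5, Acsf2, Cpt1c and Pdk4. The median log2 change of the 29 genes, GFP-positive minus GFP-negative, was 0.009, and that of all genes was 0.016. The median size of the change, without its sign, was 0.057 for the oxidation genes and 0.08 for all genes. Of the 29 changes, 23 were smaller than 0.1 on the log2 scale, 19 pointed up and 10 pointed down.

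A p that misses the threshold does not show equal levels, so the interval of each change was examined too. The 95% interval, not adjusted for the number of genes, lay inside 1.5-fold in either direction for 28 of 29 oxidation genes (96.6%, against 88.4% of all genes). The exception was Pdk4, whose interval ran from 1.02-fold to 1.76-fold higher. The moderated standard errors ran from 0.05 to 0.17 on the log2 scale. The plot of changes with their intervals shows the narrow band in which most of these genes lay.

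**Figure D1:**
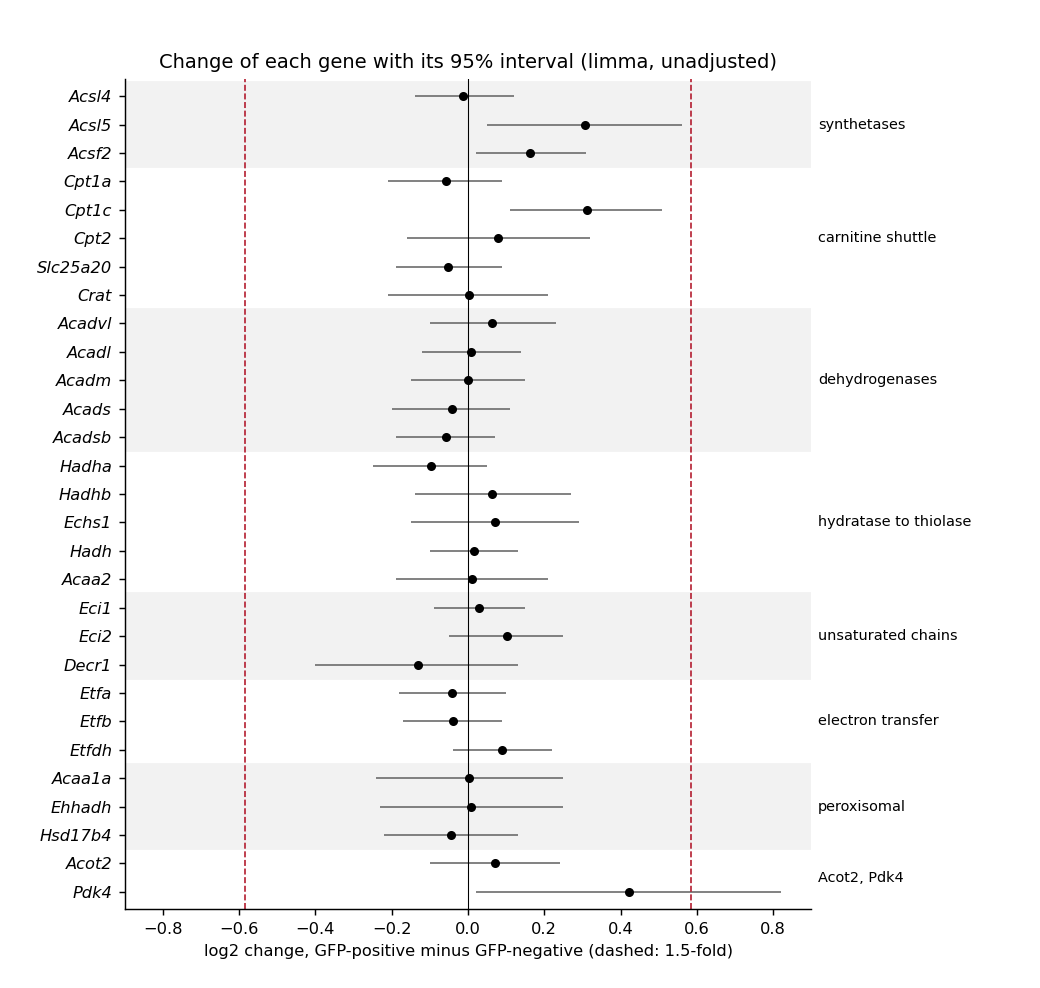
Log2 change of each of the 29 measured genes, GFP-positive minus GFP-negative, as points with 95% limma intervals not adjusted for multiple genes, with the genes in rows grouped by role and dashed lines at 1.5-fold. The interval of Pdk4 is the one that crosses a dashed line, and those of Acsl5, Acsf2 and Cpt1c lie above 0 but inside the lines.

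The labels number the arrays 1 to 3 in both groups, and same-numbered arrays deviated from their group means together (r = 0.408, 0.314 and 0.519 over all genes). The numbers were therefore taken to pair the arrays, an inference from the data. With the replicate number as a block, 3 of 29 oxidation genes passed and were higher (10.3%, against 4.55% of all genes), and 0 were lower (against 5.49%). Those 3 were Acsl5, Cpt1c and Pdk4. Their changes are given below with both tests, since the call depends on this inferred pairing.

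The activation step came first in the pathway and held 2 of the 4 genes named above. Acsl5 encodes a long-chain acyl-CoA synthetase found at mitochondria and the endoplasmic reticulum. Its log2 values were 9.13, 9.18 and 9.49 in GFP-negative replicates 1, 2 and 3, and 9.50, 9.56 and 9.66 in GFP-positive replicates 1, 2 and 3. The groups did not overlap, although negative replicate 3 lay just below the lowest positive array. The change was 0.31 ± 0.11 SE, or 1.24-fold, and missed the threshold without the block (limma adjusted p = 0.19) and passed with it (adjusted p = 0.0494). Without negative replicate 3, which was the highest of its group, the change was 0.42 and passed (adjusted p = 0.0377), and over the arrays left out the adjusted p ran up to 0.414.

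Acsf2, a mitochondrial acyl-CoA synthetase of medium-chain acids, stood at 9.86, 9.82 and 9.82 in GFP-negative cells and at 10.06, 10.04 and 9.90 in GFP-positive cells. All 3 positive arrays were above all negative ones. The difference of 0.16 ± 0.06 SE, 1.12-fold, passed neither without the block (adjusted p = 0.221) nor with it (0.155). Acsl4, a synthetase that prefers arachidonic acid, was at 9.20 ± 0.0592 (SD, n = 3) in GFP-negative and 9.19 ± 0.0365 (SD, n = 3) in GFP-positive cells. Its interval ran from −0.14 to 0.12. Of the 3 measured synthetases, 0 passed without the block and 1 with it.

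The carnitine shuttle held the smallest p of the 29 genes without the block, that of Cpt1c; with the block that of Pdk4 was smaller. Cpt1c is the brain-type member of the carnitine palmitoyltransferase family and is known for little oxidative activity, whereas Cpt1a is the liver-type enzyme, whose step is the main control point of mitochondrial oxidation. Cpt1c was at 10.13, 9.96 and 10.25 in GFP-negative replicates 1 to 3, and at 10.40, 10.37 and 10.50 in GFP-positive replicates 1 to 3. The groups did not overlap. The change was 0.31 ± 0.08 SE (1.24-fold, interval 1.08 to 1.43), with a limma adjusted p of 0.0945 without the block and 0.0329 with it.

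The estimate for Cpt1a was small and negative. Its values were 10.72, 10.62 and 10.77 in GFP-negative and 10.66, 10.58 and 10.69 in GFP-positive cells, and the groups overlapped. The change of −0.06 ± 0.06 SE had an interval of −0.21 to 0.09, so that a rise as large as the one estimated for Cpt1c lay outside it. The difference between the 2 genes' changes was not tested.

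The other shuttle genes overlapped between groups. Cpt2, which rebuilds acyl-CoA inside the mitochondrion, changed by 0.08 (interval −0.16 to 0.32). Slc25a20, the carrier that exchanges acylcarnitine for carnitine, changed by −0.05 (−0.19 to 0.09). Crat, the acetyltransferase of short chains, was at 10.22 in both groups, and its other, dimmer probe set gave a change of 0.01.

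Pdk4 gave the largest change of the 29 genes with all arrays in the fit. It encodes a kinase that shuts off pyruvate dehydrogenase and so turns cells from glucose to fatty acids as fuel, and is a classical PPAR target. Its log2 values were 7.87, 8.0 and 8.46 in GFP-negative replicates 1, 2 and 3, and 8.36, 8.52 and 8.72 in GFP-positive replicates 1, 2 and 3. The groups overlapped, since negative replicate 3 exceeded positive replicate 1, but within each replicate number the positive array was higher, by 0.49, 0.52 and 0.26. The change of 0.42 ± 0.17 SE, 1.34-fold, had a limma adjusted p of 0.255 without the block and 0.0258 with it. With 1 array left out the change ran from 0.30, without negative replicate 1, where that of Cpt1c was larger (0.32), to 0.60, and the adjusted p from 0.058 to 0.506. Acot2, a mitochondrial thioesterase that frees fatty acids from coenzyme A, changed by 0.07 (interval −0.10 to 0.24).

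Negative replicate 3 was the highest array of its group for Acsl5, Cpt1c and Pdk4 alike, and positive replicate 3 was the highest of the other group for each of them. Markers of fat cells shared part of this pattern, and so did several other lists. Of 11 measured adipocyte markers, 0 passed in limma (2 higher and 1 lower at an unadjusted p under 0.05, and 1 higher with the block), with a log2 summed level of 11.02, 11.60 and 11.73 in negative replicates 1, 2 and 3 and of 11.60, 11.87 and 12.09 in positive replicates 1, 2 and 3. Replicate 3 of each group also had the highest log2 summed level of the macrophage (14.86 and 12.53) and endothelial markers (13.21 and 12.95). For the mesenchymal markers it was highest too (16.57 and 16.52, with at most 16.56 and 16.49 in the other arrays). The same held for the lists of uptake and lipolysis (14.12 and 14.04) and of fatty acid synthesis (15.89 and 15.97) described below. It did not hold for the cartilage or muscle markers. The part of any of these lists in the 3 blocked calls was not tested.

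**Figure D2:**
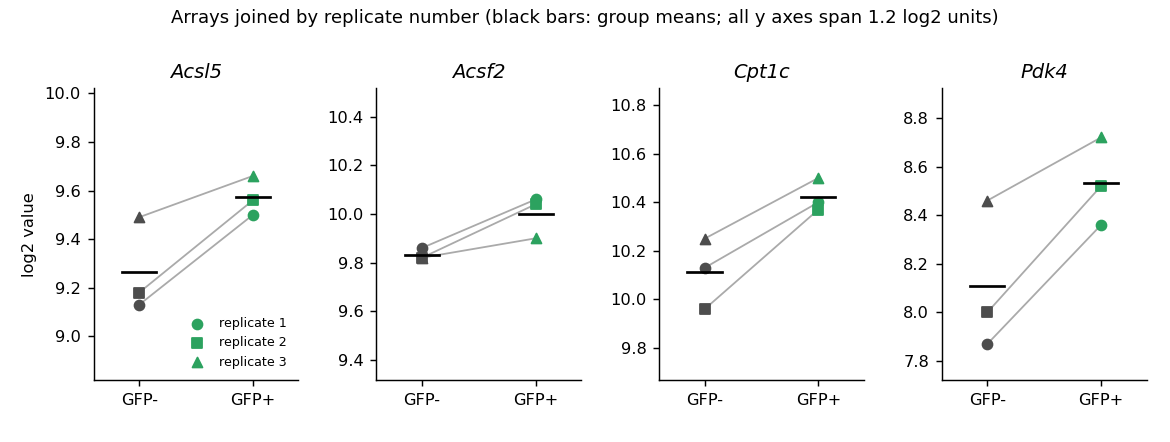
Log2 values of Acsl5, Acsf2, Cpt1c and Pdk4 in the 3 GFP-negative (grey) and 3 GFP-positive (green) arrays, with lines joining arrays of the same replicate number and black bars at the group means. Every line rises, and for Pdk4 negative replicate 3 (8.46) lies above positive replicate 1 (8.36).

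The promoters of these 4 genes are shown because they are the ones with the smallest p-values, as the 250 bases before the annotated start in RefSeq (build GRCm38.p6), 5′ to 3′ on the gene's strand. Of the 29 genes, 25 had a promoter in the table. Capitals mark matches to the letters searched on both strands, which were AGGTCA, the core letters bound by many nuclear receptors, TCAAGGTCA, the element of the estrogen-related receptors, and CCCNNGGG, the core letters bound by Ebf factors. AGGTCA lies within TCAAGGTCA. The windows were chr19:55253119-55253368 (plus strand) for Acsl5, chr11:94601787-94602036 (minus strand) for Acsf2, chr7:44974852-44975101 (minus strand) for Cpt1c and chr6:5496279-5496528 (minus strand) for Pdk4.
Acsl5: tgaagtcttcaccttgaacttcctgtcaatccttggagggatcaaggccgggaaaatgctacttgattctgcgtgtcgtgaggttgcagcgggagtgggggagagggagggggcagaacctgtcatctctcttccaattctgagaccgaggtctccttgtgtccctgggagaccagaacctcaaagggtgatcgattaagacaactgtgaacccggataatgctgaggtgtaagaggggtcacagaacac
Acsf2: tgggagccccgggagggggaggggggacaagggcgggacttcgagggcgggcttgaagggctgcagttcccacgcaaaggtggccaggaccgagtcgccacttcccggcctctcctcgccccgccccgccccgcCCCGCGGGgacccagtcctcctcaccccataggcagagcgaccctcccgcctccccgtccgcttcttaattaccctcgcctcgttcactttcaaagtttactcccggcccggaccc
Cpt1c: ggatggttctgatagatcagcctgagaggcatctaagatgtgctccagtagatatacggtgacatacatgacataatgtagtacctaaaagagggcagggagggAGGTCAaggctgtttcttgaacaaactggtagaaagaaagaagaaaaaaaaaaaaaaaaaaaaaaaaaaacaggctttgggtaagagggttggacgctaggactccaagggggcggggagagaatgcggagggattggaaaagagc
Pdk4: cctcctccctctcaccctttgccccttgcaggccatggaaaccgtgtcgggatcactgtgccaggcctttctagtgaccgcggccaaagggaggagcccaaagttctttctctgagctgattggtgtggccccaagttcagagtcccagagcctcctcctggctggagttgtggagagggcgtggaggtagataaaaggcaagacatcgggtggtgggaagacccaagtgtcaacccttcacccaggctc

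The Cpt1c window held AGGTCA from 146 to 141 bases before the start, and the Acsf2 window held the Ebf core from 116 to 109 bases before it. Those of Acsl5 and Pdk4 held none of the letters searched. Among the 25 oxidation genes, AGGTCA was present in 5 (Acadm, Acadvl, Cpt1a, Cpt1c and Echs1), or 20.0%, and in 14% of all 32851 windows of this length in the table. The Ebf core was present in 2 (Acsf2 and Ehhadh), or 8.0%, and in 11.8% of all windows. TCAAGGTCA was in 0 of the 25 and in 0.387% of all windows, and a direct repeat of AGGTCA with 1 base between was in 0 of the 25 and in 0.0335%. Such matches are letters in a window and were not tested as sites. The windows of the oxidation genes had a median GC content of 58.8%, against 52.4% over all windows, and Cpt1c had the lowest of them at 44.0%.

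The acyl-CoA dehydrogenases, which open each round of shortening and are divided by chain length, gave small estimates. Acadvl acts on very long chains, Acadl on long, Acadm on medium and Acads on short ones, and Acadsb on branched short chains. None of the 5 passed limma's test, and 0 had an unadjusted p under 0.05. Their changes lay between −0.06 and 0.06 on the log2 scale, with intervals that stayed between −0.20 and 0.23. Acadm, the enzyme deficient in a common inherited disorder of oxidation, was at 11.31, 11.35 and 11.41 in GFP-negative and at 11.32, 11.30 and 11.45 in GFP-positive cells, and its arrays were interleaved. Acadsb was the 1 oxidation gene whose GFP-positive arrays all lay below the GFP-negative ones (10.04, 10.04 and 10.04 against 10.08, 10.17 and 10.05), where 9.78% of all genes did so. Its change was −0.06 ± 0.05 SE (adjusted p = 0.659).

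The following enzymes of the round also gave small estimates in the 5 measured genes, none of which passed or had an unadjusted p under 0.05. Hadha and Hadhb encode the subunits of the mitochondrial trifunctional protein, which handles long chains. Hadha was at 11.65, 11.75 and 11.56 in GFP-negative and at 11.60, 11.53 and 11.54 in GFP-positive cells, a change of −0.10 ± 0.06 SE, with overlapping groups. Hadhb changed by 0.06 ± 0.09 SE, also with overlap. Their starts face away from each other, with 272 bases between them (chr5:30154981-30155252, plus strand), a stretch with a GC content of 60.3% and none of the searched letters. It is shown because the subunits share it.
Hadha-Hadhb: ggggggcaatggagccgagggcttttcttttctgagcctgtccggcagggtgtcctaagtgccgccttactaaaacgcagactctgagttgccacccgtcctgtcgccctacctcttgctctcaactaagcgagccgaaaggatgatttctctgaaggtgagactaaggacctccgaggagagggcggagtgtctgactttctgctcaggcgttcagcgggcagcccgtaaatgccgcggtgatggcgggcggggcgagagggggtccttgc

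Echs1, the enoyl-CoA hydratase of shorter chains, changed by 0.07 (interval −0.15 to 0.29). Hadh, the hydroxyacyl-CoA dehydrogenase, was at 12.53 ± 0.0161 (SD, n = 3) and 12.54 ± 0.0389 (SD, n = 3), with an interval of −0.10 to 0.13. Acaa2, the mitochondrial thiolase that releases acetyl-CoA, changed by 0.01 (−0.19 to 0.21).

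Auxiliary enzymes for unsaturated chains gave 0 calls among 3 genes. The isomerase genes Eci1 and Eci2 changed by 0.03 and 0.10. Decr1, the dienoyl-CoA reductase, had the largest downward estimate of all 29 genes, −0.13 ± 0.11 SE (adjusted p = 0.624). It was set by negative replicate 2, at 9.79, while the other negative arrays were at 9.38 and 9.44 and the positive ones at 9.35, 9.44 and 9.44. Across the arrays left out the change ran from −0.21 to −0.01.

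The electron transfer flavoprotein takes electrons from the dehydrogenases. Its subunit genes Etfa and Etfb changed by −0.04 each, and Etfdh, the enzyme that hands the electrons to ubiquinone, by 0.09 ± 0.05 SE (adjusted p = 0.49). Etfdh was higher in the positive array within each replicate number, by 0.10, 0.08 and 0.08, and did not pass with the block either (adjusted p = 0.357). In the peroxisomal group, the thiolase Acaa1a, the bifunctional enzyme Ehhadh and the multifunctional enzyme Hsd17b4 had changes between −0.04 and 0.01, with intervals between −0.24 and 0.25. Acaa1a was spread from 7.77 to 8.18 in GFP-negative cells and from 7.96 to 8.0 in GFP-positive cells, and the other values of these genes overlapped too.

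Counted over all roles, 25 of 29 genes had overlapping groups. Without overlap, 3 were higher in GFP-positive cells (10.3%, against 12.3% of all genes) and 1 was lower (3.45%, against 9.78%). By replicate number, 6 of 29 were higher in the positive array in 3 of 3 numbers (20.7%, against 25.6% of all genes) and 4 were lower (13.8%, against 18.7%). The shares without overlap or with 3 like signs were thus not above those of all genes.

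**Figure D3:**
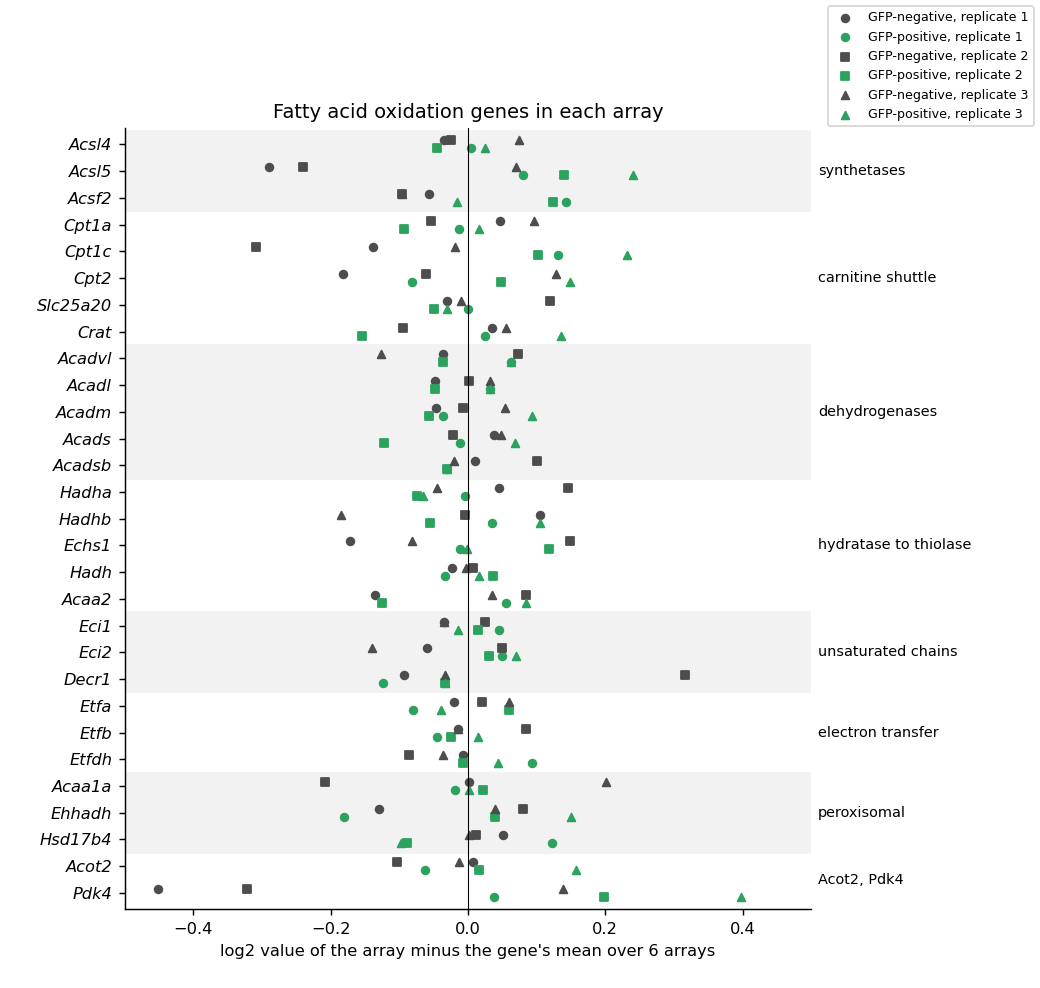
Log2 value of each gene in each array minus that gene's mean over the 6 arrays, with GFP-negative arrays in grey, GFP-positive arrays in green and the marker shape giving the replicate number. The colours are mixed in most rows and apart in those of Acsl5, Acsf2, Cpt1c and Acadsb, and negative replicate 2 stands apart for Decr1 (9.79).

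Other genes of the pathway were read from the same fit. Over all genes it gave 2.65% higher and 3.84% lower, and 4.55% and 5.49% with the block. Of 39 measured genes of a wider oxidation list (45 listed), 1 was higher and 0 lower (1 lower with the block), with a median change of 0.027. At an unadjusted p under 0.05, 3 were higher and 2 lower (against 9.19% and 8.51% of all genes). The largest changes of the list were decreases that did not pass, of Acss1 (−0.78, limma adjusted p = 0.0755) and Abcd2 (−0.62, 0.0948). The gene that passed was Amacr, a racemase of branched-chain acids in peroxisomes and mitochondria. It was at 9.74, 9.95 and 9.94 in GFP-negative and 10.39, 10.43 and 10.41 in GFP-positive cells. The groups stood clear of each other, and the change was 0.53 ± 0.07 SE (1.45-fold, limma adjusted p = 0.00791, and up to 0.045 with 1 array left out).

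Among 30 regulators, 1 was higher and 1 lower, with a median of 0.033. Ppargc1a, the coactivator that drives mitochondrial and oxidation genes, was at 7.71, 7.58 and 7.34 in GFP-negative and 8.19, 8.29 and 7.92 in GFP-positive cells, and the groups did not overlap. It was 1.5-fold higher (adjusted p = 0.0462), but the call was lost without any 1 negative array (changes of 0.67, 0.61 and 0.49, adjusted p = 0.0619, 0.129 and 0.111 without negative replicate 1, 2 and 3) and without positive replicate 1 or 2 (0.56 and 0.51, adjusted p = 0.17 and 0.156). Ncoa1, a nuclear receptor coactivator, was 1.52-fold lower (−0.60 ± 0.07 SE, adjusted p = 0.00626).

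The PPAR genes did not pass. Ppara, the main PPAR of oxidation in liver, changed by −0.16 (adjusted p = 0.382) and Pparg, that of fat cells, by 0.58 (0.417). The value of Pparg rested on negative replicate 1, which stood at 9.33 against 10.30 and 10.58 in the other negative arrays, and was 0.21 without it. Ppard, the widely expressed member, was at 10.02, 9.95 and 9.94 in GFP-negative and 10.23, 10.21 and 10.14 in GFP-positive cells, with no overlap, a change of 0.22 ± 0.05 SE and an adjusted p of 0.0691. It passed when dim genes were left out (0.0496) and when arrays were centred over the genes tested (0.0454). The estrogen-related receptor gene Esrra changed by 0.10 (0.579) and Acacb, whose product makes the malonyl-CoA that blocks the shuttle, by −0.18 (0.341).

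In the list of fatty acid uptake and lipolysis, 5 of 19 measured genes were lower and 0 higher at an unadjusted p under 0.05. The shares of all genes were 8.51% and 9.19%. In limma's adjusted test 3 were lower and 0 higher (3 and 1 with the block, and 3.84% and 2.65% of all genes without it). They were Cav1, the caveolin of membrane pits (1.84-fold, −0.88 ± 0.14 SE, adjusted p = 0.0141), Angptl4, a secreted inhibitor of lipoprotein lipase and PPAR target (1.64-fold, −0.71 ± 0.08 SE, adjusted p = 0.00395), and Lipa, the lysosomal lipase (1.24-fold, adjusted p = 0.0469). Angptl4 was at 10.59, 10.67 and 10.52 in GFP-negative and at 9.83, 9.79 and 10.02 in GFP-positive cells, clear of overlap and opposite in sign to Pdk4. The call of Lipa was lost without any 1 array (adjusted p of 0.0691 to 0.146) and after either form of median centring (0.0515 and 0.0993). Lipa is also abundant in macrophages, whose markers were lower in the same arrays. Their part in the change of Lipa was not tested.

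Downstream of oxidation, 0 of 21 measured genes of the tricarboxylic acid cycle and 0 of 35 of the electron transport chain passed in limma, with or without the block, with medians of 0.009 and −0.013 and changes between −0.16 and 0.13. At an unadjusted p under 0.05, 1 and 2 of them were lower and none was higher. In the opposite pathway, fatty acid synthesis, the median was 0.092. At an unadjusted p under 0.05, 8 of 24 were higher and 0 lower (against 9.19% and 8.51% of all genes). In limma's adjusted test 0 of the 24 passed (1 higher with the block). Of 16 measured thermogenic genes, 1 was higher (Ppargc1a) and 1 lower (Zic1, a transcription factor used as a brown fat marker, 2-fold lower, adjusted p = 0.00202). Among these 16, 8 lay under the 40th percentile of mean level, where 0 of the 29 oxidation genes did. None of these lists was tested against the oxidation genes.

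**Figure D4:**
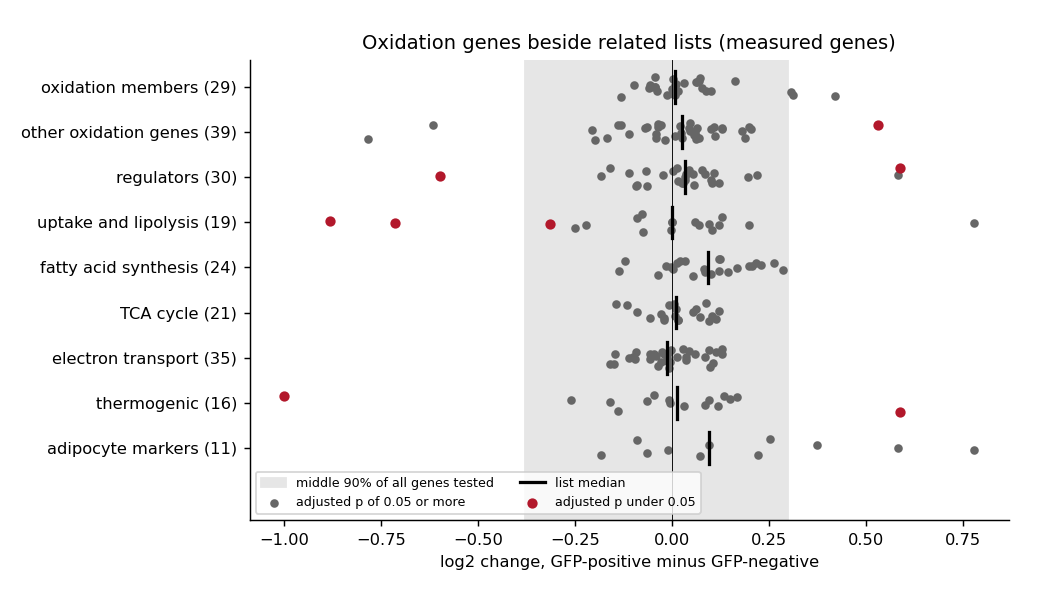
Log2 change of each measured gene, GFP-positive minus GFP-negative, for the 29 oxidation genes and 8 related lists (number of genes in brackets), with list medians as black bars, genes at a limma adjusted p under 0.05 in red and the middle 90% of all genes tested (−0.38 to 0.30) shaded. Of the 29 oxidation genes, 26 lie inside the shaded band and 3 above it, and the genes in red belong to other lists.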

How the data were processed

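For each probe set and each of 6 Affymetrix arrays, 1 deposited log2 expression value was used. RMA and limma are named per the submitters' processing notes, with no version stated there. The log2 scale was inferred from the range of values (3.41 to 14.32, array medians 6.657 to 6.712). Such RMA values share nearly the same distribution, so a shift common to most genes may not appear. Values of different probe sets are not compared with each other as levels of genes.

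Of 41345 probe sets, 23521 list 1 gene, 1814 several and 16010 are not named here. Gene identifiers were matched to a RefSeq table to bring symbols up to date (23328 of 23521 matched). The deposited values carry no build or coordinates. With 1 probe set a gene, 22180 genes were tested with lmFit and eBayes of limma 3.58.1 (R 4.3.3), with Benjamini-Hochberg adjustment over all of them, no filter on dim genes and a threshold of 0.05. Each change subtracts the GFP-negative mean from the GFP-positive mean, its error is the moderated standard error, and summed levels are log2 of the sum of linear values. The script was tested on simulated data. Since separate embryos or litters behind the replicates are not given in the labels, the p-values reflect the spread of these samples alone, and that spread may be technical. Precision is limited by the number of arrays.

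The members and lists were chosen with earlier results of these data known. Named genes are all measured members, Ebf2, Pdgfra, up to 4 called genes of each related list and 6 regulators (Ppara, Ppard, Pparg, Ppargc1a, Esrra and Acacb). Those of the marker lists are named where leaving out an array ended the call. Thy1, and Acss1 and Abcd2 of the wider oxidation list, are named in addition for the size of their changes. Same-numbered arrays were taken as pairs because all 3 of their correlations were above those of other numbers (−0.384 to −0.024). Deviations from a group's own mean cancel out within the group, so positive correlations of same numbers lower the others. The contrast is thus partly built in, and the labels do not state a pairing. Other settings tried were array weights, eBayes with trend and robust, the mean of a gene's probe sets, a filter at the 40th percentile of mean level, median centring, quantile normalization, the replicate block and the omission of each array in turn. Centring over the genes tested and a fit of all probe sets were added after seeing the data. Figures were drawn with matplotlib 3.10.9.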

Additional observations from a re-analysis of the deposited data

Results flagged for a closer look

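The probe set that lists both Acsl3 and Utp14b belongs to no comparison above, and its signal was higher in GFP-positive cells. Its log2 values were 9.17, 9.13 and 9.12 in GFP-negative replicates 1, 2 and 3, and 9.48, 9.61 and 9.51 in GFP-positive replicates 1, 2 and 3, with no overlap. The difference was 0.39 ± 0.06 SE (1.31-fold). In a fit of all 41345 probe sets, chosen after seeing the data, it passed (limma adjusted p = 0.0325), and with the replicate block it did not (0.0811). The value cannot be credited to Acsl3, the synthetase, rather than to Utp14b.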

How the results depend on the processing

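The count of oxidation genes that were lower stayed at 0 in every setting run. The count that were higher was 0 as reported and moved to 3 with the replicate block (Acsl5, Cpt1c and Pdk4), which changed the call of no other oxidation gene, and to 1 with centring over the genes tested (Cpt1c, adjusted p = 0.0492); with 1 array left out it ranged from 0 to 1 (Acsl5, without GFP-negative replicate 3). Their median log2 change of 0.009 became 0.066 with that centring, which shifted the median of all genes by 0.056 and made 868 genes higher and 749 lower (53.7% higher in place of 40.9%), and ranged from −0.003 to 0.030 with 1 array left out. The count over all genes went from 1439 to 2228 with the block and ranged from 629 to 1067 with 1 array left out; without GFP-positive replicate 1, 2 or 3 it was 629, 667 or 762. Single oxidation genes gave 406 values over the settings. Of these, 401 stayed uncalled and 5, of 3 genes, became called. The sign turned in 37 uncalled values of 14 genes. For the 35 related genes, 41 of 489 values lost a call and 2 gained one. The files carry no detection calls, so the signal over background is unknown.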
